A study of Mus musculus with 69 samples.

Results

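H3K27ac and H3K4me1, 2 modifications of histone H3, were compared across the genome of wild-type haematopoietic stem cells (HSCs) of the mouse. The H3K27ac list came from 3 libraries of wild-type HSCs and the H3K4me1 list from 4 libraries of wild-type HSCs. Both groups were labelled 16 weeks old and had received PBS, the vehicle of the study's drug arm, every 3 weeks for 3 rounds. Together they made up 7 of the 69 samples of a series on a conditional Kmt2c allele. The labels do not say whether the wild-type mice carried the Vav-Cre transgene or whether a library held cells of 1 mouse or several. The H3K4me1 titles carry a series number, s5060, that the H3K27ac titles lack. In this assay (ChIPmentation) chromatin of the sorted, fixed cells is pulled down by an antibody to 1 mark and tagged there by the Tn5 transposase; the labels name the antibody for H3K27ac and not for these H3K4me1 libraries. The members were chosen by file: the H3K27ac list held 59263 regions and the H3K4me1 list 87410.

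Acetylation of histone H3 at lysine 27 is placed by the acetyltransferases p300 and CBP and is found at active promoters and active enhancers. Monomethylation at lysine 4 is placed at enhancers mainly by MLL3, which Kmt2c encodes, and by MLL4. It marks enhancers whether or not they are active, and it flanks active promoters, whose centre carries trimethylated lysine 4 instead. An enhancer with H3K4me1 and no H3K27ac is often called primed, and one with both marks active. In blood formation the stem cell state depends on factors such as MECOM, HLF and RUNX1, and enhancers far from the gene start are known to control Runx1 and Mecom.

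A gene's start could take 4 states in these lists: H3K27ac only, both marks, H3K4me1 only and neither. The RefSeq promoters of 4 genes are shown as examples, 1 gene per state. Each is the 250 bases before the annotated start on build GRCm38.p6, written 5′ to 3′ in the direction of the gene, with CG dinucleotides in capitals. The genes were chosen after their values were seen. Meis1 (chr11:19018970-19019219, minus strand), a homeobox factor of HSCs, had H3K27ac on 2001 bases within 1 kb of the start and H3K4me1 on 0. Gata2 (chr6:88193641-88193890, plus strand), a zinc finger factor of HSCs, had H3K27ac on 1885 bases and H3K4me1 on 364. Olig2 (chr16:91225300-91225549, plus strand), a factor of neural progenitors, had H3K27ac on 0 bases and H3K4me1 on 1146. Il7r (chr15:9529877-9530126, minus strand), the interleukin 7 receptor of lymphoid progenitors, had neither mark.
Meis1: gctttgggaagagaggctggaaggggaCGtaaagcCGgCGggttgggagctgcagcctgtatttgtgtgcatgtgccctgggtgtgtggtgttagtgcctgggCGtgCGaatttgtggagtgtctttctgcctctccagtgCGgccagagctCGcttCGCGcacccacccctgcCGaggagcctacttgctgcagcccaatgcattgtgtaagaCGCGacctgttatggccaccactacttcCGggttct
Gata2: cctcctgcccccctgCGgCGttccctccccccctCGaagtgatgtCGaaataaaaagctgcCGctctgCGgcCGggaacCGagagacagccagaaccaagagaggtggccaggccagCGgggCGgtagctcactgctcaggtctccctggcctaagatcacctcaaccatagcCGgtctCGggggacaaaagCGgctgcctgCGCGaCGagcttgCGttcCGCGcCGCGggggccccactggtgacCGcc
Olig2: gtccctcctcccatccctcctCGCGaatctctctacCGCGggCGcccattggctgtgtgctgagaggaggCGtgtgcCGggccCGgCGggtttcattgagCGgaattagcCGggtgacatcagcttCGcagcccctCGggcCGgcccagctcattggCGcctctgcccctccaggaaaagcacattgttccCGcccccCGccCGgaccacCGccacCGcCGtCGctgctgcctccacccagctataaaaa
Il7r: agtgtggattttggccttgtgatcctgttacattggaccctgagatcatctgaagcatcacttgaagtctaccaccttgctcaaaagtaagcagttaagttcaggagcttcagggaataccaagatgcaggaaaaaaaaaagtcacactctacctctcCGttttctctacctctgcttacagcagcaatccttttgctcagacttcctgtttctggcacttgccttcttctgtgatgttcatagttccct
The Meis1 stretch held 13 CG dinucleotides, those of Gata2 and Olig2 22 each, and that of Il7r 1.

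The authors deposited 1 list for all libraries of a group, so no value below has an error between replicates and no difference was tested. Intervals are 95% Wilson intervals on counts of regions or genes and cover counting error only. The H3K27ac list covered 42.2 Mb and the H3K4me1 list 54.0 Mb. The caller's strength values differed between the lists. The median −log10 p was 4.75 for H3K27ac and 3.96 for H3K4me1, and the maxima were 174.0 and 26.7. A q-value with −log10 of at least 2 was given to 58.9% of the H3K27ac peaks and 32.5% of the H3K4me1 peaks. The read numbers behind the lists are unknown, and the mark, the set of libraries and the series number cannot be told apart. On chromosome X lay 690 H3K27ac regions (1.16% of the list) and 129 H3K4me1 regions (0.148%); the sex of the mice is not given in the labels.

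A larger share of the H3K27ac list than of the longer H3K4me1 list overlapped the other mark. That order turned at a −log10 q of at least 2, where the H3K27ac list was the longer one. At least 1 base was shared by 32776 H3K27ac regions, or 55.3% of that list (54.9 to 55.7%), and by 33757 H3K4me1 regions, or 38.6% of theirs (38.3 to 38.9%). The bases in common came to 17.1 Mb, which is 40.4% of the H3K27ac bases and 31.6% of the H3K4me1 bases. That left 26487 regions with H3K27ac only and 53653 with H3K4me1 only. Sharing was mostly region to region: 83.5% of the shared H3K27ac regions touched 1 H3K4me1 region, and 85.6% of the shared H3K4me1 regions touched 1 H3K27ac region. Among peaks with a −log10 q of at least 2 the shares were 34.6% of H3K27ac and 42.8% of H3K4me1 regions. When at least 50% of the shorter region had to be shared they were 47.6% and 33.1%. Under either setting fewer H3K27ac regions counted as shared than not. The shared counts of the lists, 32776 and 33757, were close, so their shares differed mainly through list length. Lists cut to equal peak numbers gave 46.4% and 44.7%, a closeness that follows largely from the equal lengths.

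Counted by regions, strength and position each moved with the sharing. Among H3K4me1 regions the share that overlapped H3K27ac was 25.9% in the weakest quartile of −log10 p, 29.6% and 41.2% in the next 2, and 57.8% in the strongest. Among H3K27ac regions it was 44.7%, 53.8%, 61.9% and 60.8% in the same order, so the strongest quartile was not above the next. Stronger regions were also wider. Median widths of the weakest and strongest quartiles were 205 and 1395 bp for H3K27ac and 301 and 872 bp for H3K4me1. By bases in common the H3K27ac quartiles gave 40.4%, 46.5%, 50.2% and 34.9%, so the strongest shared the smallest part. The H3K4me1 quartiles gave 20.5%, 21.9%, 29.3% and 40.7%. The part of width was not tested. Of the H3K27ac regions within 1 kb of a gene end, 37.2% overlapped H3K4me1, against 61.1% of those farther away. In the strongest quartile the same shares were 45.8% at gene ends and 76.4% beyond 1 kb. Counted by regions, H3K4me1 showed the opposite order: 50.8% at gene ends overlapped H3K27ac, against 37.1% beyond 1 kb. Counted by bases that order was nearly gone, with 32.1% of H3K4me1 bases in common at gene ends and 31.5% beyond 1 kb. For H3K27ac the shares of bases were 15.6% at gene ends and 53.6% beyond 1 kb.

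**Figure D1:**
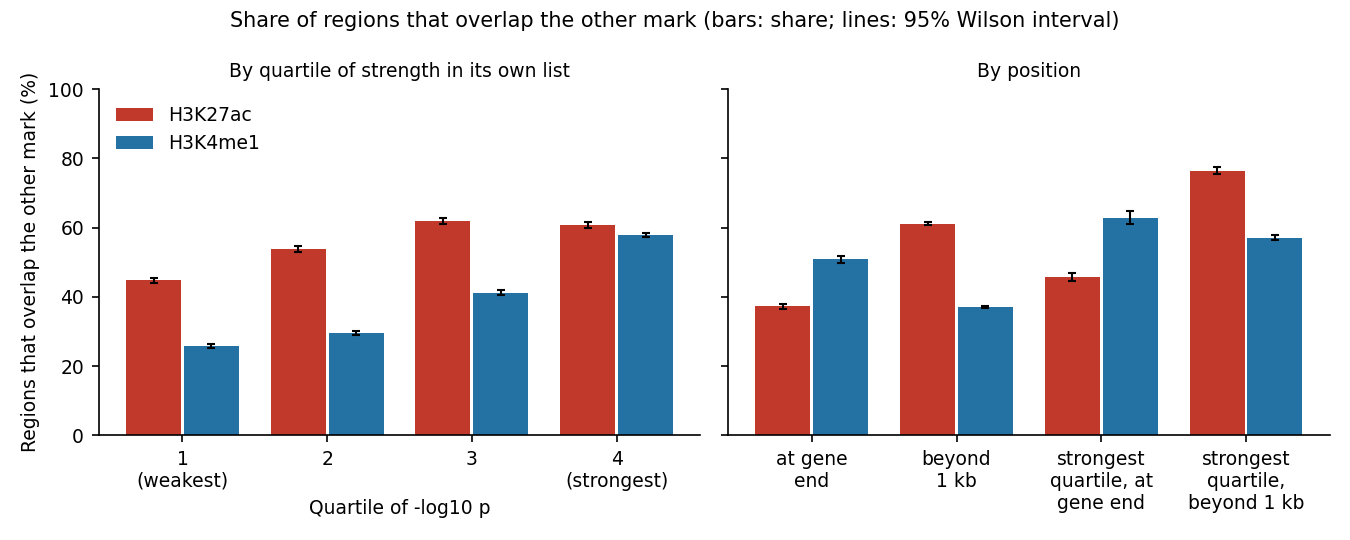
The share of H3K27ac (red) and H3K4me1 (blue) regions that overlap the other mark, in percent on the y axis, by quartile of −log10 p within each list (left) and by position (right), with 95% Wilson intervals as lines. H3K27ac regions are shared less often at gene ends (37.2%) than beyond 1 kb (61.1%), and H3K4me1 regions more often (50.8% and 37.1%). By bases, which are not drawn, the H3K4me1 shares are 32.1% and 31.5%.

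The 5 strongest shared H3K27ac regions all lay in genes. The strongest H3K27ac region that overlapped H3K4me1 was chr12:110484505-110489616, 5112 bp wide, in Ppp2r5c, which encodes a regulatory subunit of protein phosphatase 2A; it had a −log10 p of 174.0, and H3K4me1 covered 55.9% of it. The next 4 by H3K27ac were at Ino80 (a chromatin remodeller), Hjurp (the chaperone of the centromeric histone), Btbd9 and Isca1, and H3K4me1 covered 4.09% to 55.2% of them. By H3K4me1 the strongest shared region was again at Hjurp, chr1:88274759-88277110, with a −log10 p of 26.7 and H3K27ac on 83.0% of its bases. The 4 that followed were nearest to Gvin1, Gse1, P2rx7 and Snap47. A very strong H3K27ac region could thus hold little H3K4me1, as at Ino80, or have it on most of its bases, as at Ppp2r5c.

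The strongest regions with 1 mark only differed in where they lay. Of the 5 strongest regions with H3K27ac only, those at Usp38 (a deubiquitinase), Txnl1 (a thioredoxin-like protein), Pnisr and Htd2 lay within 1 kb of an annotated gene end, with H3K4me1 82 to 1190 bp away. The remaining one, near Zfp958, was 56793 bp from a gene end and 60905 bp from the nearest H3K4me1. The 5 strongest regions with H3K4me1 only were nearest to Fcgr3 (an Fc receptor of myeloid cells), Gm6569, Gse1, Treml2 and Lipe (hormone-sensitive lipase), and all 5 lay 1066 bp or more from a gene end. The top 5 H3K27ac-only values of −log10 p ran from 132.2 to 155.3 and the top 5 H3K4me1-only values from 13.7 to 21.4, scales that differ between the lists.

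The lists differed in their distance to gene ends. A gene end here is an annotated transcription start for the 17492 protein-coding genes whose strand is known and either end of the gene for the rest. Within 1 kb of one lay 24.2% (23.9 to 24.6%) of the H3K27ac regions and 11.2% of the H3K4me1 regions. Between 1 and 10 kb the order turned, with 20.7% of H3K27ac and 32.0% of H3K4me1 regions. From 10 to 50 kb the shares were 32.7% and 34.7%, and beyond 50 kb 22.4% of H3K27ac and 22.1% of H3K4me1 regions, so the shares of far regions were close.

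The regions with 1 mark only stood farther apart than the lists as wholes. At gene ends were 34.0% of the regions with H3K27ac only and 8.99% of those with H3K4me1 only. In the strongest quartile these shares were 70.6% of 5810 regions with H3K27ac only and 10.7% of 9222 regions with H3K4me1 only. For H3K27ac the share at gene ends was 10.2% in the weakest quartile and 51.1% in the strongest. For H3K4me1 it was 10.2% in the weakest quartile and 12.1% in the strongest, so position hardly moved with strength. Shared regions gave close shares whichever list they were counted in, with 16.3% of the H3K27ac and 14.8% of the H3K4me1 regions at gene ends.

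**Figure D2:**
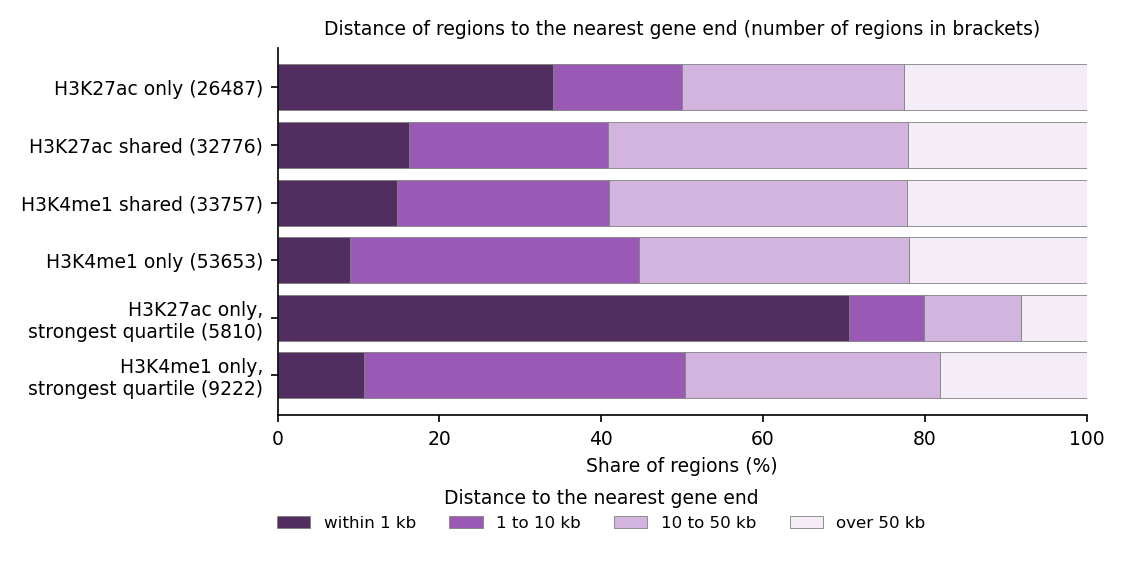
Share of regions (x axis, percent) in 4 bins of distance to the nearest gene end, for regions with 1 mark only, shared regions, and the regions with 1 mark only in the strongest quartile of each list. The darkest bin, within 1 kb, holds 34.0% of the H3K27ac-only and 8.99% of the H3K4me1-only regions, and 70.6% and 10.7% of those in the strongest quartile.

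Around starts the marks took different places. Over 21263 annotated starts, the base at the start lay inside an H3K27ac region in 35.2% and inside an H3K4me1 region in 2.31%. H3K27ac was highest 200 bp downstream, at 39.9%. H3K4me1 had 2 maxima, 19.1% at 1200 bp downstream and 10.0% at 1000 bp upstream, so the downstream shoulder was the higher one. At the 10627 starts with H3K27ac within 1 kb, H3K4me1 covered 3.20% at the start and 34.3% at 1400 bp downstream. A dip was also seen where H3K27ac was not listed. At the 1411 starts with H3K4me1 only, H3K4me1 covered 10.7% at the start, 35.7% at 900 bp downstream and 28.2% at 600 bp upstream. At the far ends of 11079 genes over 10 kb long, 2.64% lay inside H3K27ac and 3.38% inside H3K4me1.

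**Figure D3:**
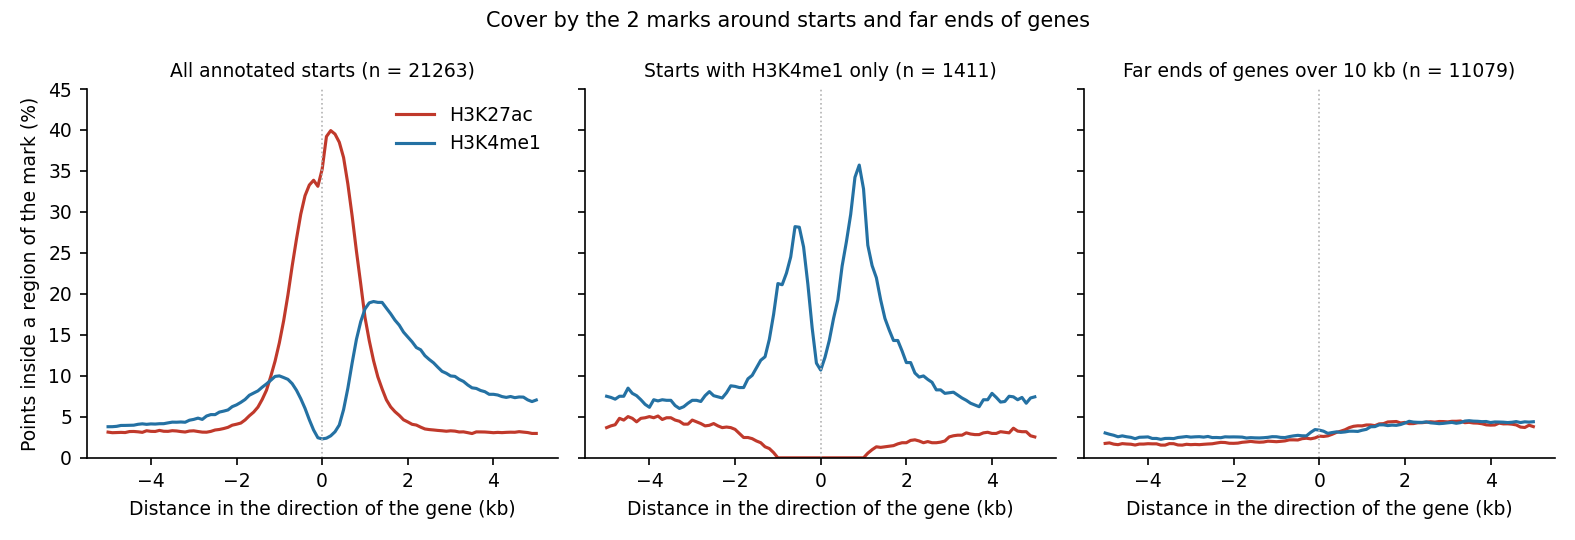
Percent of points inside an H3K27ac (red) or H3K4me1 (blue) region (y axis) by distance from the point in the direction of the gene (x axis, kb), at all starts (left), starts with H3K4me1 only (middle) and far gene ends (right). H3K27ac peaks at 39.9% just past the start, where H3K4me1 is lowest (2.31% at the start), and H3K4me1 rises to 10.0% upstream and 19.1% downstream; in the middle panel H3K27ac is 0 within 1 kb by the choice of starts.

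A like arrangement was seen inside wide shared regions, pooled over regions. Shared H3K27ac regions of at least 1000 bp were cut into 5 steps of equal width on each side, numbered from the edge (step 1) to the middle (step 5). In the 3283 such regions at gene ends, H3K4me1 covered 44.4% of step 1, and 34.9%, 23.7%, 18.0% and 16.0% of steps 2 to 5. In the 6589 such regions beyond 1 kb it covered 57.9% of step 1 and 66.2% to 69.4% of steps 2 to 5. In these wide shared regions H3K4me1 thus lay more at the edges at gene ends and across the whole elsewhere, on average. Of all H3K27ac regions, 62.8% at gene ends and 38.9% beyond 1 kb had no H3K4me1. Regions with H3K27ac only at gene ends often had H3K4me1 close by: the median gap to the nearest H3K4me1 region was 869 bp, and 68.2% had one within 2000 bp. At the summits of H3K27ac regions, H3K4me1 was present at 10.3% of those at gene ends and 48.4% of those beyond 1 kb.

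**Figure D4:**
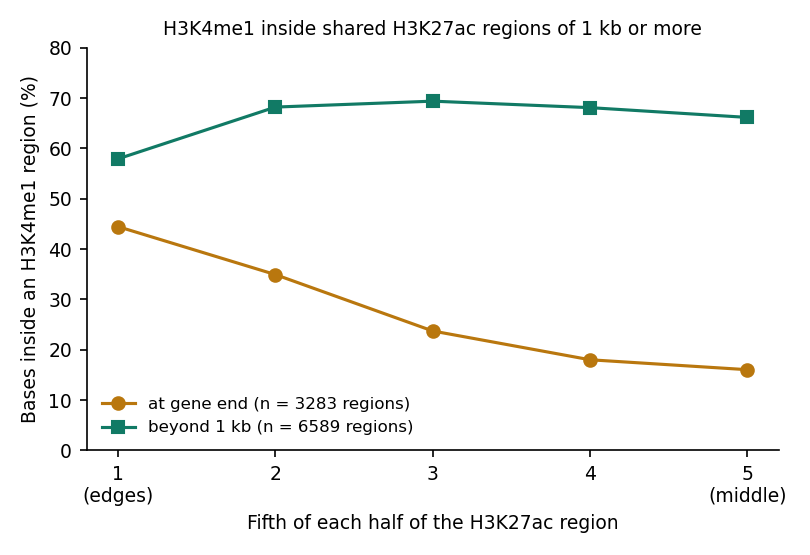
Percent of bases inside an H3K4me1 region (y axis) in 5 steps from the edges to the middle (x axis) of shared H3K27ac regions of at least 1000 bp, at gene ends (circles) and beyond 1 kb (squares). At gene ends the cover falls from 44.4% at the edges to 16.0% in the middle; elsewhere it is 57.9% at the edges and 66.2% in the middle.

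H3K27ac widths were spread more than H3K4me1 widths. The median was 430 bp for H3K27ac and 455 bp for H3K4me1, a difference that turned to H3K27ac being 154 bp wider when gaps of up to 500 bp were joined. From the 10th to the 90th percentile H3K27ac ran from 152 to 1671 bp and H3K4me1 from 212 to 1211 bp. Regions of at least 2000 bp made up 6.32% of the H3K27ac and 2.58% of the H3K4me1 list. Shared regions were wider than those with 1 mark only, with medians of 555 and 319 bp for H3K27ac and of 617 and 388 bp for H3K4me1. The part of width in the sharing was not tested. H3K27ac regions were wider at gene ends (median 806 bp) than beyond 1 kb (364 bp), whereas H3K4me1 regions were 477 and 452 bp wide in the same places.

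The widest regions of the 2 lists lay at different genes. The widest H3K27ac region spanned 19901 bp of the HoxA cluster at Hoxa7, chr6:52214942-52234842, and H3K4me1 covered 8.18% of it. The next were 14048 bp wide, 104218 bp from the nearest gene Haao, with H3K4me1 on 67.3%, and 11476 bp wide at Ptpre, a receptor-type tyrosine phosphatase, with H3K4me1 on 87.9%. The widest H3K4me1 regions were 8473 bp at Capzb (a capping protein of actin filaments), 8014 bp at Rbm38 (an RNA-binding protein) and 7963 bp at Sh3gl1 (an endophilin). H3K27ac covered 61.6% of the one at Capzb and 49.8% of the one at Sh3gl1, and 0 bases of the one at Rbm38. The HoxA region was thus the widest of either list and among the poorest of these 6 in the other mark.

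Of 21779 protein-coding genes, 12032 (55.2%) had both marks between 5 kb before and 5 kb after the gene. H3K27ac alone was found at 1538 genes (7.06%) and H3K4me1 alone at 1617 (7.42%), and 6592 genes (30.3%) had neither. The genes with 1 mark only held little of it: the median was 901 bases in the H3K27ac-only genes and 629 bases in the H3K4me1-only genes, against 2071 H3K27ac bases and 2075 H3K4me1 bases in the genes with both. Of the H3K27ac-only genes 277 (18.0%) lay on chromosome X, where 28.8% of 963 genes had H3K27ac only and 0.727% had H3K4me1 only. Without chromosomes X and Y the counts were 1259 genes with H3K27ac only and 1610 with H3K4me1 only. Which state was the more frequent depended on the lists: at a −log10 q of at least 2 there were 4655 genes with H3K27ac only and 846 with H3K4me1 only, and with the longer H3K4me1 list at 8 weeks 702 and 2462.

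Within 1 kb of gene ends the states were less even. Both marks were found at the ends of 6243 genes (28.7%), H3K27ac only at 4650 (21.4%), H3K4me1 only at 1476 (6.78%) and neither at 9410 (43.2%). With the H3K4me1 list at 8 weeks the counts were 2482 genes with H3K27ac only and 2627 with H3K4me1 only, so the excess of H3K27ac-only ends did not hold against that list. Its size also moved with the window around gene ends. Within 500 bp there were 8219 genes with H3K27ac only and 999 with H3K4me1 only, and within 2 kb 2456 and 1728. CpG content differed between the states. Over 21255 RefSeq promoter windows of 300 bases, the median ratio of observed to expected CpG was 0.79 at starts with H3K27ac only, 0.77 with both marks, 0.62 with H3K4me1 only and 0.24 with neither. A ratio of at least 0.6 was found in 76.5% of the H3K27ac-only windows, 71.8% of those with both, 52.4% of the H3K4me1-only windows and 16.7% of those with neither, against 47.7% of all windows.

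HSC genes had both marks almost throughout. Of 10 genes used as HSC markers, all 10 had H3K27ac and H3K4me1 in the gene window. Of 24 HSC regulators, 23 had both marks and 1 had H3K4me1 only, against 55.2% with both and 7.42% with H3K4me1 only among all genes. That gene was Gfi1b, a repressor of the Gfi family, with 0 H3K27ac bases and 7784 H3K4me1 bases, none of them within 1 kb of a gene end. All 17 genes of HSC surface proteins and niche receptors had both. This was not particular to HSC genes: both marks were found at 21 of 22 ribosomal and 16 of 17 housekeeping genes, though at 10 of 20 lymphoid genes. Median gene length was 24773 bp for all genes with both marks, 6204.5 bp for those with neither and 118216 bp for the HSC regulators. The part of length was not tested. At −log10 q of at least 2, 3 regulators and 1 surface gene had H3K27ac only. At the gene ends 14 of the 24 regulators and 9 of the 17 surface genes had both marks, against 28.7% of all genes. H3K27ac only was found at the ends of 8 regulators and 7 surface genes, against 21.4% of all genes. Among genes with H3K27ac at their ends, H3K4me1 was missing there in 8 of 22 regulators and 7 of 16 surface genes. For all genes it was 4650 of 10893, so these shares were not far from that of all genes.

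The covered bases of single HSC genes differed widely. Mecom, the zinc finger factor of HSC self-renewal, had 63119 H3K27ac bases and 60684 H3K4me1 bases, in 64 and 106 regions. Its strongest H3K27ac region was chr3:30453124-30458762, with a −log10 p of 48.1, and its strongest H3K4me1 region chr3:30477384-30479339, with 8.39. Runx1, a factor needed for blood stem cells to form, had 21596 H3K27ac bases and 67671 H3K4me1 bases. Kit, the receptor of stem cell factor, had 8626 and 22686, Hlf, a factor of dormant HSCs, 8175 and 30385, and Cd34, a sialomucin of progenitors, 4358 and 7485. Gata2 went the other way with 10415 H3K27ac and 6175 H3K4me1 bases. The protein C receptor Procr had 1745 and 4425.

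The balance of the marks was put as the log2 ratio of H3K27ac to H3K4me1 bases, with 1000 bases added to each, relative to the median gene (whose raw value was -0.02). Of 12048 genes with at least 1000 bases of a mark, 1505 (12.5%) were at least 2-fold above the median gene and 1687 (14.0%) at least 2-fold below. At a −log10 q of at least 2 the counts were 955 above and 1960 below. The ratio moved with gene length: its median was 0.15, 0.06 and -0.22 in 3 equal groups of these genes from short to long. The part of length in the lists below was not tested. Of the HSC regulators, 3 of 24 were above and 8 below, with a median of -0.50; their median gene length was 118216 bp, against 17217 bp for all genes. Hlf stood at -1.76, Runx1 at -1.59 and Kit at -1.28. The 2 highest regulators were Hoxa9 at 2.84 and Hoxb5 at 2.40.

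Hox genes, which encode the homeobox factors of body pattern and, in HSCs, of self-renewal, divided into marked and unmarked members. Of 20 listed, 12 had both marks, 5 had H3K4me1 only and 3 neither, against 55.2%, 7.42% and 30.3% of all genes, so the count with both was near the share over all genes. The 5 with H3K4me1 only became 1 at a −log10 q of at least 2, 2 with lists of equal peak numbers or equal bases, and 8 with the H3K4me1 list at 8 weeks. Of the 12 with a ratio, 6 were at least 2-fold above the median gene and 1 below, against 12.5% and 14.0% of all genes measured, with a median of 1.18. Hoxa9 had 14274 H3K27ac and 1160 H3K4me1 bases, and Hoxb5 had 7596 and 650. H3K4me1 alone was found at Hoxa4 (1318 bases), Hoxb1 (522), Hoxc10 (221) and Hoxd13 (482), and Hoxb9, Hoxc8 and Hoxd8 had neither mark. These genes overlap in their windows, and 1 wide region such as that at Hoxa7 counts for several of them; their median length was 3558 bp.

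Quiescence and immediate early genes, which hold cells out of the cycle or answer signals within minutes, had the highest median ratio of the 15 lists after the Hox genes. Of 20, 19 had both marks and 1, Cdkn2c, had H3K27ac only, against 55.2% and 7.06% of all genes. Of the ratios 10 were at least 2-fold above the median gene and 2 below, against 12.5% and 14.0% of all genes measured, with a median of 0.97; the median gene length was 4708 bp. The cell cycle inhibitor Cdkn1a had 2485 H3K27ac and 226 H3K4me1 bases (ratio 1.53), and the zinc finger factor Klf4 had 3501 and 548 (1.56). Foxo3 and Foxo1, the forkhead factors of stress resistance, were the 2 lowest with 11437 and 38446 bases (-1.65) and 1218 and 12172 bases (-2.55). At gene ends 11 of the 20 had H3K27ac only and 9 both, against 21.4% and 28.7% of all genes. All 20 had H3K27ac there, and of the 10893 genes with H3K27ac at their ends 4650 had H3K27ac only. At a −log10 q of at least 2 the list held 7 genes with H3K27ac only, and with the H3K4me1 list at 8 weeks 0.

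Genes of basic cell function had both marks in the gene and, at their ends, H3K27ac without H3K4me1 in many cases. Of 22 cytosolic ribosomal protein genes, 21 had both marks and 1, Rpl13, had H3K27ac only, with 1858 bases. At their ends 11 had both and 11 H3K27ac only. Of 20 cell cycle genes 16 had both marks, 3 (Ccna2, Mcm4 and Bub1) H3K27ac only, and 1 (Plk1) neither, and at their ends 10 had H3K27ac only. Of 17 housekeeping genes 16 had both, and Hprt, on chromosome X, had H3K27ac only. The X-linked Pgk1 had 3995 H3K27ac bases and 208 H3K4me1 bases. Both X-linked housekeeping genes were thus poor in H3K4me1, as was chromosome X as a whole in this list. There 5.92% of 963 genes had both marks, against 58.2% of autosomal genes. Actb had 3270 H3K27ac and 4541 H3K4me1 bases. These counts moved with the lists: at a −log10 q of at least 2, 7 ribosomal, 7 cell cycle and 4 housekeeping genes had H3K27ac only, and with the H3K4me1 list at 8 weeks 0 of each. Among all genes 55.2% had both marks and 7.06% H3K27ac only, and at gene ends 21.4% had H3K27ac only. Of the 10893 genes with H3K27ac at their ends, 4650 had no H3K4me1 there. Counted so, it was 11 of 22 ribosomal, 10 of 19 cell cycle and 7 of 16 housekeeping genes, shares not far from that of all genes.

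Every signal response gene with a match had H3K27ac in its window. So did every listed ribosomal, housekeeping, HSC surface, and quiescence and immediate early gene, and every enzyme gene of the next paragraph. Of 19 interferon response genes with a match 15 had both marks and 4 had H3K27ac only: Stat2, a signal transducer of type I interferon, and the antiviral effectors Ifit3, Oas1a and Oas2, with 624 to 1159 bases. Among all genes 55.2% had both and 7.06% H3K27ac only, and with the H3K4me1 list at 8 weeks 1 interferon response gene had H3K27ac only. Isg15, a ubiquitin-like modifier, had 3423 H3K27ac and 1163 H3K4me1 bases, whereas Irf9, the partner of the STATs, had 1534 and 4522. Of 18 genes of NF-kB and the interleukin 1 response 17 had both and 1, the prostaglandin synthase Ptgs2, H3K27ac only, a count that was 6 at a −log10 q of at least 2 and 2 with the list at 8 weeks. Rel and Nfkbiz leaned to H3K27ac, with ratios of 1.27 and 1.21, and the chemokine gene Ccl2 to H3K4me1, with 208 and 2677 bases (-1.59).

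The enzymes that write, read and remove these marks carried both themselves in the lists as deposited. All 25 listed had both in the gene window, against 55.2% of all genes, and at −log10 q of at least 2 there were 6 with H3K27ac only. At their ends 12 had both, 12 H3K27ac only and 1 neither, against 28.7%, 21.4% and 43.2% of all genes. Among genes with H3K27ac at their ends, 12 of 24 enzymes and 4650 of all 10893 had no H3K4me1 there. Kmt2c had 3140 H3K27ac and 1790 H3K4me1 bases, with H3K27ac on 1738 bases and no H3K4me1 within 1 kb of its gene ends. Kmt2a (MLL1), with 1259 and 15389 bases, was the lowest in ratio, at -2.84. Dpy30, a core subunit of the methyltransferase complexes, and the deacetylase Hdac3 were the highest, at 1.35 and 1.24.

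Among genes of mature blood lineages many had both marks and others neither; of all genes, 55.2% had both marks, 7.42% H3K4me1 only and 30.3% neither. Of 22 granulocyte and monocyte genes 16 had both marks, 1 (Fcgr3) had H3K4me1 only and 5 neither, among them Ctsg, Ly6c2, S100a8 and Camp. Spi1, which encodes the myeloid factor PU.1, had 16904 H3K27ac and 13984 H3K4me1 bases, and Cebpa 294 and 1459. Of 18 megakaryocyte and erythroid genes 12 had both and 6 neither, among them Gata1, Alas2 and Car1; Gata1 and Alas2 are on chromosome X. Itgb3, an integrin of platelets, had 3578 and 23508 bases and Zfpm1, the partner of GATA1, 10759 and 46017. Of 20 lymphoid genes 10 had both, 3 (Pax5, Cd4 and Bcl11b) H3K4me1 only and 7 neither, among them Il7r, Cd3e, Cd8a and Gzmb. Ebf1, a B cell factor, had 353 and 2043 bases. At lymphoid gene ends 3 of 20 had H3K27ac and 7 of 20 had H3K4me1, alone or with the other mark. Counted the same way, 10893 of all 21779 genes had H3K27ac at their ends and 7719 had H3K4me1. The lymphoid share with H3K4me1 at the ends was thus near that of all genes.

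Of the 15 lists, that of genes silent in blood had the fewest members with H3K27ac for its size. Of its 20 genes, 1 (Alb, 115 H3K27ac and 576 H3K4me1 bases) had both, 3 (Apoa1, Afp and Gfap) had H3K27ac only with 593 to 793 bases, 6 had H3K4me1 only and 10 neither. Those with H3K4me1 only encode developmental factors, among them Pax6 with 3540 H3K4me1 bases, Olig2 with 2718, Cdx2 with 1776, Neurog2 with 998 and Nkx2-1 with 368. The count of 6 was 3 at a −log10 q of at least 2, 4 with equal covered bases and 7 with the H3K4me1 list at 8 weeks. No gene of the list had H3K27ac within 1 kb of its ends, and 5 of 20 had H3K4me1 there. Of all 21779 genes, 10893 had H3K27ac at their ends and 7719 H3K4me1. In the gene window 55.2% of all genes had both marks, 7.06% H3K27ac only, 7.42% H3K4me1 only and 30.3% neither. Of 12 markers of stroma and endothelium, the non-blood cells a marrow sort could hold, 6 had both, 4 (Cxcl12, Col1a1, Pdgfra and Prrx1) H3K4me1 only, 1 (Col1a2) H3K27ac only and 1 (Lepr) neither. H3K27ac covered 0 bases at Cxcl12, Lepr, Col1a1, Pdgfra and Prrx1. It covered 14132 bases at Pecam1, which HSCs also express, 2534 at Kdr, 2161 at Nes, 654 at Col1a2, 602 at Pdgfrb, 323 at Cdh5 and 137 at Acta2; all 12 members are given here, some outside the rule for naming genes. The part of other cells in these lists was not tested.

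**Figure D5:**
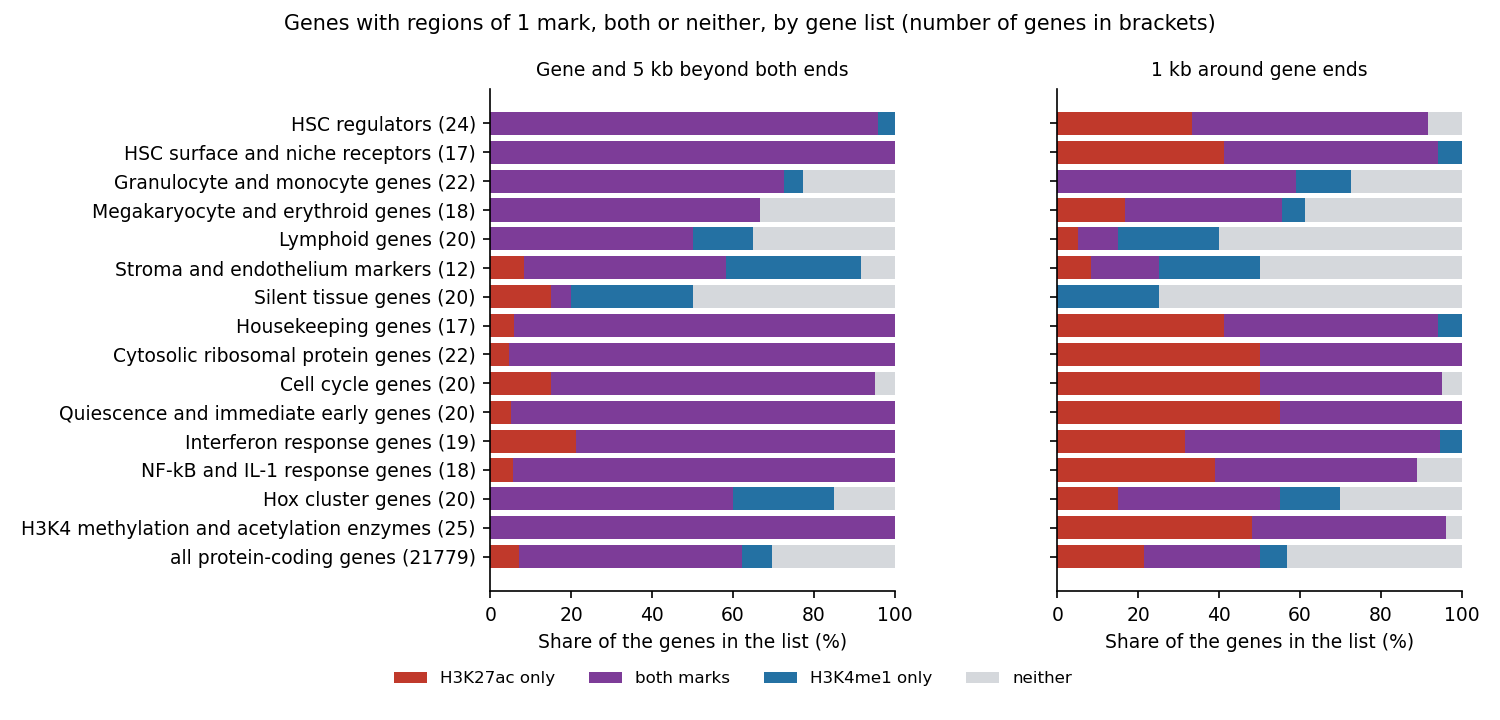
Share of the genes of each list (x axis, percent) with H3K27ac only, both marks, H3K4me1 only or neither, in the gene and 5 kb beyond (left) and within 1 kb of gene ends (right), with all protein-coding genes at the bottom. Both marks hold 23 of 24 HSC regulators on the left, H3K27ac only holds 11 of 22 ribosomal protein genes on the right, and H3K4me1 only holds 6 of 20 silent tissue genes on the left.

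The classes were then read in lists made from other libraries. Of the 5810 regions with H3K27ac only in the strongest quartile, 99.7% had H3K27ac in wild-type HSCs of 16 weeks given 5-fluorouracil at 150 mg/kg every 3 weeks for 3 rounds, and 98.95% had it in Kmt2c f/f; Vav-Cre HSCs given PBS on the same schedule (Vav-Cre is active in blood-forming cells). H3K4me1 was found on 53.4% of them in the 5-fluorouracil list, which covers 116.0 Mb, on 15.2% in the knockout list, which covers 44.2 Mb, and on 45.4% in wild-type HSCs of 8 weeks, whose list covers 86.1 Mb. Of the 9222 strong regions with H3K4me1 only, 23.5% had H3K27ac after 5-fluorouracil and 11.9% in the knockout list, and 96.6% had H3K4me1 in the 8-week list. For the 12631 strong shared H3K4me1 regions the same shares were 91.0%, 78.5% and 99.1%. For strong regions with 1 mark only, the mark they had was found more often than the one they lacked in each of these lists. Their choice by a high value of 1 mark and no region of the other favours that order, so it is no support for the classes. The order did not hold in every list for the full set of 17476 regions with H3K27ac only beyond 1 kb of a gene end. After 5-fluorouracil 54.1% of these had H3K27ac and 54.9% H3K4me1, and in the knockout lists 37.5% and 14.4%. Wild-type progenitors (HPCs) were 8 to 10 weeks old and given PBS in the H3K27ac list and 8 weeks old in the H3K4me1 list. There 33.2% of the 17476 regions had H3K27ac and 46.6% H3K4me1. Of the 1706 of them in the strongest quartile, 99.4% had H3K27ac and 59.5% H3K4me1 after 5-fluorouracil. For these 1706 the shares were 97.5% and 18.8% in the knockout lists and 82.9% and 62.1% in progenitors. The dip at starts was present in each H3K4me1 list read. In the 8-week wild-type list 5.79% of starts lay inside H3K4me1, with 29.4% at 1200 bp downstream, and in the knockout list 2.01% and 17.3% at 1300 bp downstream.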

How the data were processed

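Histone marks were measured by ChIPmentation in sorted HSCs, and peak lists were deposited per group. Novoalign, MACS2 and the builds mm10 and GRCm38 are named in the submitters' processing notes, with no versions; the filter on the peaks, the control used and how libraries were pooled are not stated in the labels or files. In the deposited lists the fold enrichment of each peak, the −log10 p-value and the −log10 q-value are the authors' own values, and each list stands for all libraries of its group. Here they were used to rank and filter peaks within a list. Read depth is unknown.

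No peaks of a list overlapped, so peaks are called regions. Overlaps, widths, distances and covered bases were computed with Python 3.11.15, numpy 2.4.6 and pandas 2.3.3, and Wilson intervals with scipy 1.17.1; the interval routines were tested on simulated data. Gene positions, starts and promoter sequences are from RefSeq on GRCm38.p6; 108 protein-coding genes listed before position 3000000 of a chromosome, where neither list has a region, were left out as scaffold genes. Strand was known for 17492 genes through the promoter table. Quartiles of strength are of −log10 p within a list. The members and gene lists were chosen with earlier results of these data known. Genes were named by a rule: the nearest genes of the 5 strongest regions of each class and the 3 widest of each list, up to 4 members per state and the 2 highest and 2 lowest ratios of each gene list, and 16 genes of reference. Meis1 was named after its values were seen, and some genes the rule names are not reported here. Promoter windows on chromosome 18 were not used here, so both ends stand for those genes. The lists of 5-fluorouracil, knockout, 8-week and progenitor groups were read at the regions found here, at gene starts and for their chromosome X regions, and the 8-week H3K4me1 list also took the place of the 16-week one as an alternative. Alternatives were other overlap rules, windows, gene sets, thresholds and list sizes.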

Additional observations from a re-analysis of the deposited data

How the results depend on the processing

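No paired analysis was possible because each group has 1 pooled list, and for the same reason no replicate was left out. Depth is unknown, so a mark missing from a list is not shown to be absent. Values are given H3K27ac before H3K4me1. At least 50% of the shorter region shared gave overlaps of 47.6% and 33.1%. A −log10 q of at least 2 gave overlaps of 34.6% and 42.8%, a median width difference of -36 bp, gene-end shares of 41.3% and 9.59% for regions with 1 mark only and of 33.3% and 11.9% for whole lists, 4655 and 846 genes with 1 mark only, and 955 genes at least 2-fold above the median gene. Equal peak numbers gave overlaps of 46.4% and 44.7%, -144 bp, gene-end shares of 31.8% and 9.64% for 1 mark only and 11.7% for the H3K4me1 list, and 2574 genes with H3K27ac only. Equal covered bases gave 44.9994% and 45.0431%, -150 bp, 31.4%, 9.71% and 11.73% in the same places, and 2702 genes. Joining gaps of up to 500 bp gave overlaps of 58.04% and 40.9% and reversed the width difference to 154 bp; the cause was not tested.

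The H3K4me1 list at 8 weeks gave overlaps of 69.2% and 32.6%, gene-end shares of 36.2% and 10.1% for 1 mark only and 13.5% for that list, 702 and 2462 genes with 1 mark only, and 2482 and 2627 gene ends. A gene end of 500 bp gave shares of 29.97% and 3.62% for 1 mark only, 21.04% and 4.52% for whole lists, and 8219 gene ends with H3K27ac only; 2 kb gave 37.8% and 18.4%, 28.1% and 19.4%, and 2456. All annotated genes gave 39.4% and 13.1%, and 29.3% and 15.8%. A window of 50 kb gave 925 and 799 genes with 1 mark only. Alternatives added after seeing the data were both ends of every gene, with 32.4% and 9.72%, and 23.6% and 11.6%, and leaving out chromosomes X and Y, with 55.9% of H3K27ac regions shared and 23.9% of them at gene ends, and genes with an annotated start, which moved no count by over 1.5 times. In every alternative that gave these shares, H3K27ac lay at gene ends more often than H3K4me1. Of the other values, 83 counts and ratios of gene lists and single genes moved and 208 did not.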

Other observations

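Short motifs of blood factors were counted on both strands in the 300-base promoter windows. The ETS core GGAAG was found in 75.1% of windows at starts with H3K27ac only, 78.6% with both marks, 68.6% with H3K4me1 only and 67.7% with neither, against 72.4% of all 21255 windows. The RUNX motif TGTGGT was found in 10.4%, 13.2%, 14.8% and 18.4% of the windows in the same order, against 15.0% of all, and the GATA motif GATAAG in 4.50%, 4.84%, 7.09% and 9.47%, against 6.92% of all. The AP-1 motif TGACTCA was found in 3.01%, 3.53%, 4.18% and 6.30%, against 4.66% of all. Median GC content moved with the states too: 62.0% with H3K27ac only, 60.7% with both, 60.0% with H3K4me1 only and 49.3% with neither. A match describes these letters and is not a bound site.

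The states of the promoters were also counted by CpG content. Among 3638 windows with an observed-to-expected CpG ratio of at least 0.9, 39.9% had H3K27ac only, 44.9% both marks, 4.56% H3K4me1 only and 10.6% neither. Among 6796 windows below 0.3, 4.90% had H3K27ac only, 9.98% both, 4.36% H3K4me1 only and 80.8% neither. In the classes from 0.3 to 0.6 and from 0.6 to 0.9, 8.67% and 8.82% had H3K4me1 only, against 6.64% of all starts.

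The low number of H3K4me1 regions on chromosome X recurred in the knockout list of the same series number, with 87 regions (0.107% of that list), while the wild-type 5-fluorouracil list, from 3 libraries with that number and 3 with the number s4902, had 690 (0.523%) and the 8-week wild-type HSC list 611 (0.517%). The H3K27ac lists had 720 (1.07%) after 5-fluorouracil and 612 (1.197%) in the knockout.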
